A study of Mus musculus with 27 samples.

Results

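The Notch ligands Dll1, Dll3, Dll4, Jag1 and Jag2, the receptors Notch1, Notch2 and Notch3 and the target genes Hes1 and Hes5 were followed as 10 genes, taken by name, of the 39017 rows of the neural progenitor count table. The same 10 genes were read from the counts of embryonic pancreas (55536 rows) and of adult islets (26487 rows). All 10 passed the filter on low counts in progenitors and in embryonic pancreas, and 8 did in islets, where Dll3 and Hes5 had at most 3 counts in any library.

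The study examined Nkx2.2, a homeodomain transcription factor of the ventral spinal cord and of pancreatic endocrine cells, and a form of it mutated in the conserved SD domain. The series holds 27 mouse samples in 11 groups. The progenitors were day 4 motor neuron progenitors differentiated from mouse embryonic stem (ES) cells. In the pMN group (n = 3) the iNkx2.2 line received no doxycycline. In the iNkx2.2 group (n = 3) the same line was given doxycycline (1 µg/ml, about 16 h) to induce FLAG-tagged wildtype Nkx2.2. In the iSDmut group (n = 2) a separate line was given doxycycline to induce the FLAG-tagged mutant. Every induced library had doxycycline and no pMN library did, and iSDmut came from its own line, so transgene, doxycycline and, for iSDmut, cell line cannot be told apart in the comparisons with pMN. Whether a line is a single clone is not stated in the labels.

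Pancreas was measured as whole organ at an embryonic stage given as E15.5 (3 controls, which the design text calls wildtype, and 4 mutants from Nkx2.2SDmut mice, here SDmut), as islets at 8 weeks (2 controls and 3 betaSDmut, with the mutation directed to beta cells) and as islets at 4 weeks (2 controls and 2 labelled betaKO). The labels give the molecule of the 4-week samples as genomic DNA, while their columns hold counts and FPKM per gene like those of the RNA libraries. Zygosity, the driver of the beta-cell alleles and any pooling of animals are not given in the labels. The labels do not say that replicates came from separate cultures or animals, so p-values measure the spread between these libraries.

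Notch signalling acts between touching cells. A Delta-like or Jagged ligand on the sending cell binds a Notch receptor on its neighbour, the receptor is cut by proteases, and its intracellular piece joins the DNA-binding protein Rbpj to switch on genes such as Hes1 and Hes5, whose products repress neurogenic genes. In the ventral neural tube the pathway keeps progenitors from becoming neurons, and Dll1 and Jag1 are transcribed in different progenitor domains. In the developing pancreas it limits how many cells become endocrine.

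Progenitor libraries held 17757991 to 46840701 counts, embryonic pancreas 38447596 to 41840638 and islets 12398041 to 32385406. All 10 neural progenitor markers were detected in each progenitor group, with a summed level of 1760 to 2460 CPM (counts per 1000000, scaled by TMM library factors), against 10.9 to 19.1 CPM for 6 pluripotency markers. Nkx2-2 itself was at 11.6, 5.40 and 10.7 CPM in pMN, 378, 343 and 343 CPM in iNkx2.2 and 248 and 245 CPM in iSDmut, so Nkx2-2 transcripts rose on the log2 scale by 5.25 (SE 0.242, adjusted p 1.49e-05 with edgeR) and by 4.72 (SE 0.245, adjusted p 4.01e-05). The table does not separate transgene from endogenous transcripts. At E15.5, Nkx2-2 in SDmut differed from control by -0.10 (SE 0.224), within the spread. In the 4-week libraries labelled betaKO it was at 94.1 and 65.5 CPM, against 104 and 77.2 CPM in controls (log2 fold change -0.18, SE 0.237, adjusted p 0.779), so a deletion does not show in these counts, which can include exons outside a deleted part.

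The promoter sequences below show the letters upstream of the 2 ligands whose transcripts changed and of Hes5, the member that held a core motif of Rbpj. Each is the 250 bases before the annotated start, 5′ to 3′ on the gene's strand, from RefSeq (GRCm38.p6). Promoters were found for 9 of the 10 members, not for Hes1. Capitals mark TGGGAA, the core bound by Rbpj, searched on both strands (TTCCCA on the other strand).
Jag1, chr2:137116521-137116770, minus strand: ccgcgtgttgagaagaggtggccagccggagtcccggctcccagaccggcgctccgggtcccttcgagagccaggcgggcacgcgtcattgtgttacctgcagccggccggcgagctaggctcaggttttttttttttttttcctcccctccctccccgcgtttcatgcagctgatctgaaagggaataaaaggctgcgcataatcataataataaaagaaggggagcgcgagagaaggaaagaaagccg
Dll4, chr2:119325534-119325783, plus strand: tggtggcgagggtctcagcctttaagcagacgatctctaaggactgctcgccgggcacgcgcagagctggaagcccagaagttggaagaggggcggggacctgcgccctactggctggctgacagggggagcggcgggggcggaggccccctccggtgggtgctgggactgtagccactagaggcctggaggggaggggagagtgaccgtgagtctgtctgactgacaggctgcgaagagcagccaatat
Hes5, chr4:154960673-154960922, plus strand: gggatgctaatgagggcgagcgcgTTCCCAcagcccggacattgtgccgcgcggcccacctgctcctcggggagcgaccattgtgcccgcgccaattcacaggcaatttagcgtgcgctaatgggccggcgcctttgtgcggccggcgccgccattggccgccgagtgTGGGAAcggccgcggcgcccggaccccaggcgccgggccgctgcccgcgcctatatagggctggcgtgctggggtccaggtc
The Hes5 promoter held 2 copies, at -226 to -221 from the start on the minus strand and at -82 to -77 on the plus strand. The 250 bases of the other members with a sequence held none. Of 32851 promoters of this length, 21.6% held the core. TAAGTG, the core of NK2-class homeodomain proteins, was searched in the same way (CACTTA on the other strand) and was in none of the 9 members' promoters, while 7.90% of all promoters held it.

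The comparison of iNkx2.2 with pMN asks what wildtype Nkx2.2 changes, that of iSDmut with pMN what the mutant changes, and that of iSDmut with iNkx2.2 is the test of the difference between the 2 induced groups. In that last comparison the cell line, the level of Nkx2-2 transcript and the mutation cannot be told apart, and a difference between the transgenes means here a difference between these groups. The first 2 share the pMN libraries, so their values are set side by side and are not independent. Both transgenes were accompanied by more Jag1 and less Dll4 transcript. In iNkx2.2 against pMN 2 of 10 members passed the adjusted threshold, 1 higher and 1 lower, where 9.49% of the 15653 genes tested did (4.71% higher and 4.78% lower). An unadjusted p under 0.05 was found for 4 members and for 25.3% of all genes. In iSDmut against pMN the same 2 members passed, where 3.54% of all genes did (1.9% higher and 1.64% lower), and 6 members had an unadjusted p under 0.05, with 20.2% of all genes. In iSDmut against iNkx2.2, 0 members passed with edgeR, where 0.281% of all genes did (0.16% higher and 0.121% lower). There 4 members had an unadjusted p under 0.05, with 12.5% of all genes. DESeq2 called 2 members, and over all genes it called 196 higher and 300 lower, where edgeR called 25 and 19. The median log2 fold change of the 10 members was 0.24, 0.03 and -0.18 in these comparisons, beside -0.01, -0.01 and 0.01 over all genes tested.

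**Figure D1:**
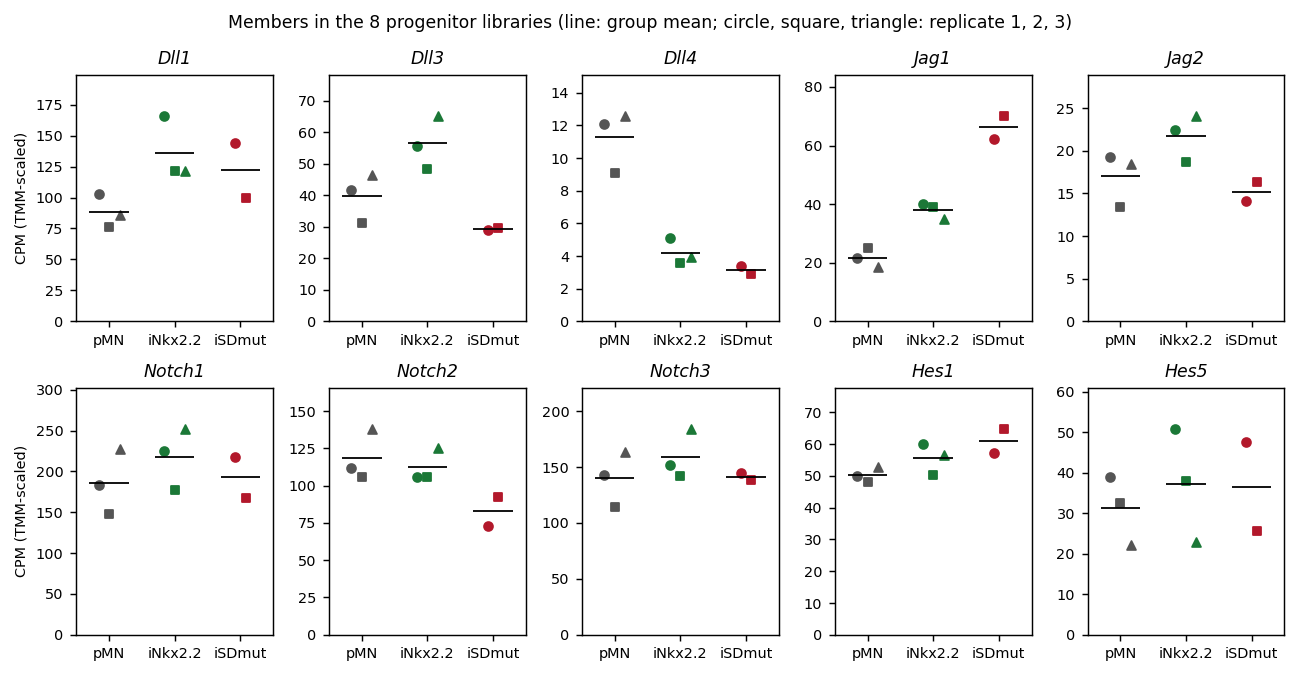
TMM-scaled CPM (vertical axis, from 0) of each of the 10 members in each of the 8 progenitor libraries, by group, with the group mean as a line and the replicate number as the marker. Dll4 lies lower in all 5 induced libraries than in any pMN library, and Jag1 lies highest in the 2 iSDmut libraries.

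Jag1 (chromosome 2, 137081456 to 137116644, GRCm38, protein-coding), a Jagged ligand, was at 21.5, 25.1 and 18.7 CPM in pMN, at 40.1, 39.1 and 35.1 CPM in iNkx2.2 and at 62.3 and 70.2 CPM in iSDmut. The 3 groups did not overlap, and every iSDmut library was above every iNkx2.2 library. Jag1 rose 1.75-fold in iNkx2.2 (log2 fold change 0.81, SE 0.129, adjusted p 0.00617 with edgeR) and 3.05-fold in iSDmut (1.61, SE 0.14, adjusted p 0.000903). Between the transgenes the log2 fold change was 0.80 (SE 0.138, 95% confidence interval 0.49 to 1.11), which missed the threshold with an edgeR adjusted p of 0.0579. It passed with DESeq2 (adjusted p 0.000107) and without the filter on low counts (0.0104), and it did not pass in any fit that left out 1 library. It also passed with lane as a covariate. There iSDmut replicate 2 is the only library of lane 3, so iSDmut rests on replicate 1 alone. In the authors' deposited table Jag1 is called higher in both induced groups and lower in iNkx2.2 than in iSDmut (log2 fold change -0.82). Over all 17 alternatives Jag1 kept its call in both comparisons with pMN.

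Dll4 (chromosome 2, 119325784 to 119335962), a Delta-like ligand best known from endothelial cells and from V2 interneuron progenitors, had the lowest mean FPKM of the members in each progenitor group, although its range overlapped those of Jag1 and Jag2 in pMN. It was at 12.1, 9.10 and 12.6 CPM in pMN, at 5.14, 3.58 and 3.92 CPM in iNkx2.2 and at 3.42 and 2.91 CPM in iSDmut. All 5 induced libraries lay below all 3 pMN libraries. Dll4 fell 2.66-fold in iNkx2.2 (log2 fold change -1.41, SE 0.222, adjusted p 0.0058 with edgeR) and 3.58-fold in iSDmut (-1.84, SE 0.266, adjusted p 0.0079). The transgenes differed by -0.43 (SE 0.257, 95% confidence interval -1.0 to 0.15, adjusted p 0.541). In a fit of the lane 2 libraries alone the log2 fold changes were -1.25 (adjusted p 0.0517) and -1.62 (adjusted p 0.113), and neither passed. That fit has 5 libraries, of which iSDmut replicate 1 is the only one of its group and is assumed to vary like the other groups. Of 10 endothelial markers, 0 were called in either comparison with edgeR. Their summed level was 27.2 to 38.6 CPM in pMN, 22.6 to 34.7 in iNkx2.2 and 26.7 to 27.0 in iSDmut, with no marker at 0 in any group. In bulk libraries fewer cells of a type and less RNA per cell cannot be told apart.

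Dll1 (chromosome 17, 15367354 to 15376872), the Delta-like ligand of nascent neurons and of several ventral progenitor domains, was at 103, 76.6 and 85.6 CPM in pMN, at 166, 121 and 121 CPM in iNkx2.2 and at 144 and 99.9 CPM in iSDmut. The iNkx2.2 libraries were all above pMN, whereas iSDmut replicate 2 lay within the pMN range. The log2 fold change was 0.62 in iNkx2.2 (SE 0.179, 95% confidence interval 0.22 to 1.02, adjusted p 0.0602 with edgeR) and 0.46 in iSDmut (SE 0.198, interval 0.02 to 0.91, adjusted p 0.227). Same-numbered pMN and iNkx2.2 libraries deviated together, and with the replicate number as a block Dll1 passed (log2 fold change 0.61, adjusted p 0.000332). The authors' deposited table calls Dll1 higher in iNkx2.2 (log2 fold change 0.65) and makes no call in iSDmut (0.46). The 2 transgenes differed by -0.16 (SE 0.2, interval -0.60 to 0.29).

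Dll3 (chromosome 7, 28293553 to 28302238), a Delta-like protein that acts within the cell and does not activate Notch on neighbours, had values on opposite sides of pMN under the 2 transgenes. Its level was 41.8, 31.3 and 46.5 CPM in pMN, 55.7, 48.3 and 65.2 CPM in iNkx2.2 and 29.1 and 29.5 CPM in iSDmut. Every iNkx2.2 library was above every pMN library, and both iSDmut libraries were below all others. The log2 fold change from pMN was 0.50 (SE 0.159, edgeR adjusted p 0.083) in iNkx2.2 and -0.45 (SE 0.182, adjusted p 0.206) in iSDmut. With the replicate block the value in iNkx2.2 was 0.50 with an adjusted p of 0.00354. The difference between the transgenes was -0.95 (SE 0.184, interval -1.36 to -0.54, adjusted p 0.0815). That difference passed with DESeq2 (adjusted p 0.000393) and without the filter (0.0104). It also passed with lane as a covariate, a fit in which iSDmut rests on replicate 1 alone.

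Jag2 (chromosome 12, 112907819 to 112929776), the other Jagged ligand, was at 19.3, 13.4 and 18.5 CPM in pMN, 22.4, 18.7 and 24.1 CPM in iNkx2.2 and 14.1 and 16.3 CPM in iSDmut. The iNkx2.2 and pMN ranges overlapped, the iSDmut values lay inside the pMN range, and both were below all iNkx2.2 libraries. Its log2 fold change was 0.35 (SE 0.168, adjusted p 0.232) in iNkx2.2, -0.16 (SE 0.191, adjusted p 0.678) in iSDmut and -0.51 (SE 0.191, adjusted p 0.312) between the transgenes.

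**Figure D2:**
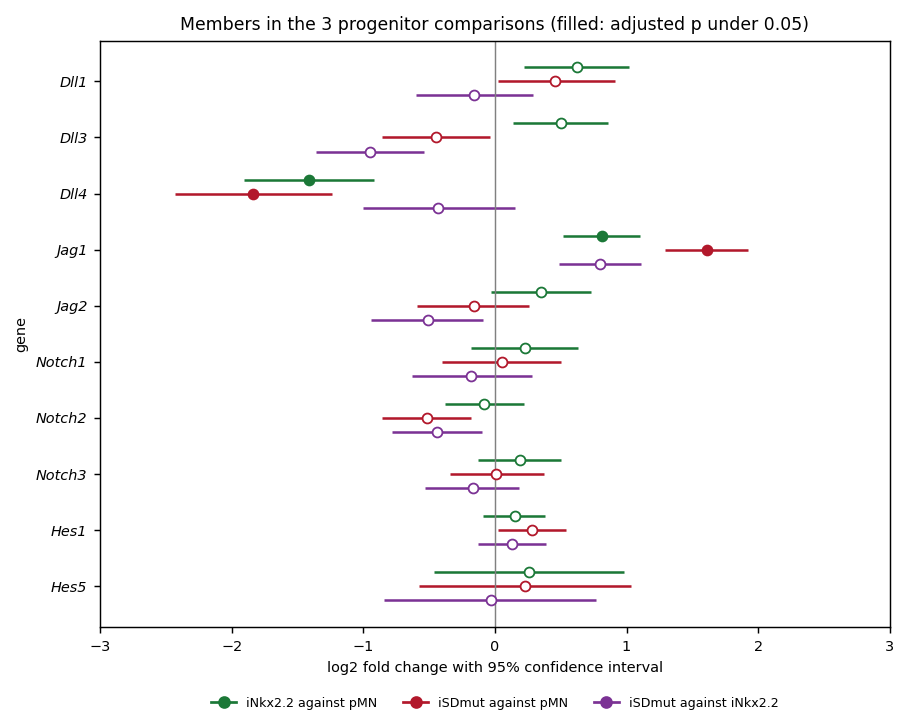
Log2 fold change (horizontal axis) of the 10 members in the 3 progenitor comparisons, with 95% confidence intervals. Filled points passed an edgeR adjusted p of 0.05, and these are Dll4 and Jag1 in the 2 comparisons with pMN, which share the pMN libraries.

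Levels of different ligands were compared per length, in the FPKM values the authors deposited. Dll1 was the most abundant ligand in each of the 8 progenitor libraries, at 35.0, 24.4 and 31.3 FPKM in pMN, 59.7, 42.5 and 43.3 in iNkx2.2 and 52.5 and 33.5 in iSDmut. Jag1 was at 3.26 ± 0.623 FPKM (SD, n = 3), 6.17 ± 0.73 (SD, n = 3) and 10.5 ± 1.0 (SD, n = 2). Dll1 stood at 11.6, 6.14 and 11.1 times the FPKM of Jag1 in pMN, 8.52, 7.46 and 7.46 times in iNkx2.2 and 5.37 and 2.99 times in iSDmut. The share of Jag1 and Jag2 in the summed FPKM of the 5 ligands was 10.2%, 13.5% and 10.2% in pMN, 11.4%, 12.2% and 12.4% in iNkx2.2 and 15.7% and 23.0% in iSDmut. The iNkx2.2 shares lay inside the pMN range, and the iSDmut shares lay above both groups. The summed FPKM of the 5 ligands was 59.6, 44.5 and 57.6 in pMN, 93.1, 72.8 and 80.9 in iNkx2.2 and 76.8 and 61.0 in iSDmut, so all induced libraries were above all pMN libraries. Dll4 made up 5.07%, 4.30% and 4.98% in pMN, and 0.862% to 1.66% in the 5 induced libraries. Dll1, and not a Jagged ligand, held the largest share in every progenitor library, between 53.5% and 68.4%. These shares are a description and were not tested.

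**Figure D3:**
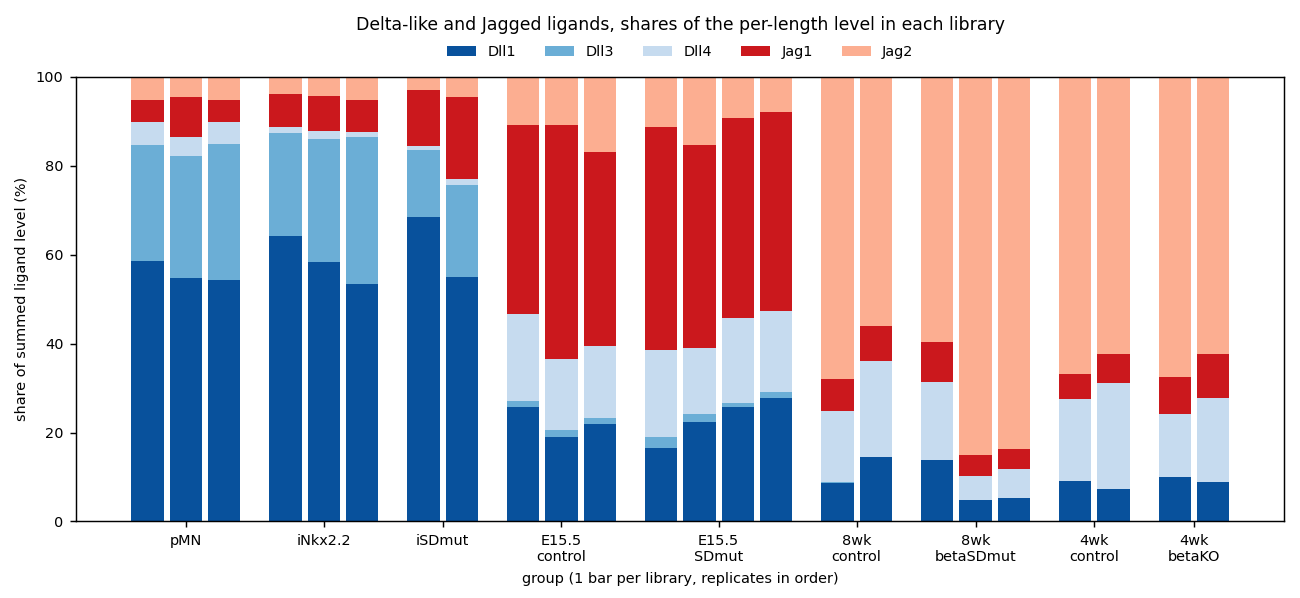
Share of each ligand in the summed per-length level of the 5 ligands (vertical axis, percent), 1 bar per library, with FPKM for progenitors and islets and CPM per kb of exon for E15.5 pancreas. Dll1 fills the largest part of every progenitor bar, Jag1 of every E15.5 bar and Jag2 of every islet bar.

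The receptors, which bind both ligand families, showed 0 called members of 3 in each progenitor comparison with edgeR, and DESeq2 called Notch2 in iSDmut against pMN. Notch1 (chromosome 2, 26457903 to 26516663), the main receptor of neural progenitors, was at 184, 148 and 227 CPM in pMN, 225, 177 and 252 CPM in iNkx2.2 and 218 and 168 CPM in iSDmut. Its ranges overlapped in all 3 groups, with log2 fold changes of 0.23 (SE 0.18) and 0.05 (SE 0.202) from pMN. With the replicate block, Notch1 passed in iNkx2.2 (adjusted p 0.0124). Notch3 (chromosome 17, 32120820 to 32166852) also overlapped, at 143, 114 and 163 CPM in pMN, 152, 142 and 184 CPM in iNkx2.2 and 145 and 138 CPM in iSDmut, with log2 fold changes of 0.19 (SE 0.142) and 0.01 (SE 0.159).

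Notch2 (chromosome 3, 98013527 to 98150361), the receptor with lower FPKM than Notch1 and Notch3 here, was at 112, 106 and 138 CPM in pMN, 106, 106 and 125 CPM in iNkx2.2 and 73.1 and 92.4 CPM in iSDmut. Both iSDmut libraries were below all 6 others. The log2 fold change was -0.08 (SE 0.134) in iNkx2.2 and -0.52 (SE 0.152, interval -0.86 to -0.18, edgeR adjusted p 0.0982) in iSDmut. Between the transgenes it was -0.44 (SE 0.152, edgeR adjusted p 0.274). In iSDmut against pMN Notch2 passed with DESeq2 (adjusted p 0.0389). With lane as a covariate it passed there (-0.59) and between the transgenes (-0.51), in a fit where iSDmut rests on replicate 1 alone.

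The target genes did not pass in any progenitor comparison. Hes1 (chromosome 16, 30064384 to 30067796), a repressor made in progenitors, was at 50, 48.0 and 52.7 CPM in pMN, 60.1, 50.4 and 56.5 CPM in iNkx2.2 and 57.2 and 64.8 CPM in iSDmut. Both iSDmut libraries were above all pMN libraries, and iNkx2.2 overlapped both groups. The log2 fold change was 0.15 (SE 0.104, adjusted p 0.417 with edgeR) and 0.28 (SE 0.116, adjusted p 0.217). Hes5 (chromosome 4, 154960923 to 154962371), a repressor of the same family that follows Notch activity in the neural tube, was at 38.9, 32.6 and 22.1 CPM in pMN, 50.8, 37.9 and 22.9 CPM in iNkx2.2 and 47.6 and 25.6 CPM in iSDmut. Its spread within each group was larger than any difference between groups. The log2 fold changes from pMN were 0.26 (SE 0.322, interval -0.46 to 0.98) and 0.23 (SE 0.36, interval -0.58 to 1.03), so changes of this size were not detectable. In FPKM, Hes5 (55.8 ± 15 in pMN, SD, n = 3) was the highest member in pMN, ahead of Hes1 (37.2 ± 3.12) and Dll1 (30.2 ± 5.37), and Hes1 and Dll1 did not differ beyond their ranges.

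Ranges that did not overlap were found in either direction for 4 of 10 members in iNkx2.2 against pMN (3 higher, 1 lower), where 31.4% of all genes did not overlap. In iSDmut against pMN they were found for 5 members (2 higher, 3 lower), with 36.4% of all genes, and in iSDmut against iNkx2.2 for 5 members (1 higher, 4 lower), with 31.9%. Separation of groups this small was common over the whole table.

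Marker genes of neighbouring cell states were read in the same libraries. The summed level of 10 postmitotic neuron markers was 463 to 930 CPM in pMN, 938 to 1360 in iNkx2.2 and 1050 to 1240 in iSDmut, and no marker was at 0. In iNkx2.2 against pMN 2 of the 10 were called higher and 2 lower, among Mnx1, Map2, Lhx3 and Tubb3. In iSDmut against pMN 1 was called lower, Mnx1. The 8 markers of V3 progenitors, V3 neurons and floor plate, the domain next to pMN, summed to 412 to 520 CPM in pMN, 474 to 600 in iNkx2.2 and 258 to 404 in iSDmut, with 2 called higher and 1 lower in iNkx2.2 and 1 lower in iSDmut. The 10 neural progenitor markers summed to 2300 to 2460 CPM in pMN, 1780 to 2030 in iNkx2.2 and 1760 to 2410 in iSDmut. Called lower were 4 in iNkx2.2 (Pax6, Olig2, Sox3 and Sox2) and 2 in iSDmut (Pax6 and Sox2). The part of these cell states in the values of Dll1, Dll3 and Jag1 was not tested.

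Other genes of the pathway were taken from 7 lists with 53 genes, of which 50 were tested in progenitors. In iNkx2.2 against pMN 7 rose and 2 fell, where 9.49% of all genes were called, and in iSDmut against pMN 2 rose and 0 fell, where 3.54% were called, a share near that of the list. Hey1, a Notch target of the Hes-related family, rose from 58.1, 38.8 and 46.2 CPM in pMN to 195, 152 and 157 CPM in iNkx2.2 (log2 fold change 1.82, SE 0.165, adjusted p 0.000367 with edgeR) and to 103 and 126 CPM in iSDmut (1.27, SE 0.177, adjusted p 0.00733). No induced library overlapped pMN, and the call in iSDmut was lost in the lane 2 libraries alone (log2 fold change 1.11, adjusted p 0.117). Mfng, which adds sugars to Notch and alters its response to Jagged ligands, rose by 0.95 (adjusted p 0.00118) and 0.78 (adjusted p 0.00873). The Mfng call in iSDmut was lost without iSDmut replicate 1 (0.70, adjusted p 0.0557) and in the lane 2 libraries (0.89, adjusted p 0.0717).

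Further genes were called in iNkx2.2 alone, which by itself does not show a difference between the transgenes. Hey2, a relative of Hey1, fell by 1.24 on the log2 scale (adjusted p 0.0123) and the Notchless gene Nle1 fell by 0.62 (adjusted p 0.0121). Aph1b and Aph1c, which encode subunits of gamma-secretase, rose by 0.67 (adjusted p 0.0247) and 1.09 (adjusted p 0.046). Hes6, a relative of Hes1 that promotes neuron formation, rose by 0.41 (adjusted p 0.0452), and Kat2b, a histone acetyltransferase of the nuclear complex, by 0.49 (adjusted p 0.0271). The calls of Hey2 and Nle1 were lost without pMN replicate 1 (adjusted p 0.0634 and 0.0576) and without iNkx2.2 replicate 1 (0.0562 and 0.0545), and that of Hey2 also in the lane 2 libraries (0.0662). Those of Aph1b, Aph1c, Kat2b and Hes6 were lost under 5, 8, 6 and 10 of 17 alternatives, with iNkx2.2 replicate 1 left out among them for each (adjusted p 0.106, 0.125, 0.11 and 0.164). Dtx1, a ubiquitin ligase that modulates Notch, rose from 1.73, 1.21 and 1.44 CPM in pMN to 5.96, 7.03 and 6.23 CPM in iNkx2.2 (log2 fold change 2.13, SE 0.247, adjusted p 0.00134). In iSDmut Dtx1 was at 1.29 and 1.66 CPM, within the pMN range. It was the only one of the 50 genes called between the transgenes (log2 fold change -2.10, SE 0.285, adjusted p 0.0281), with 8 of 17 alternatives, 6 of them without 1 library, that missed the threshold. The highest adjusted p was 0.182, without iSDmut replicate 1, and the direction was the same in all 17.

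**Figure D4:**
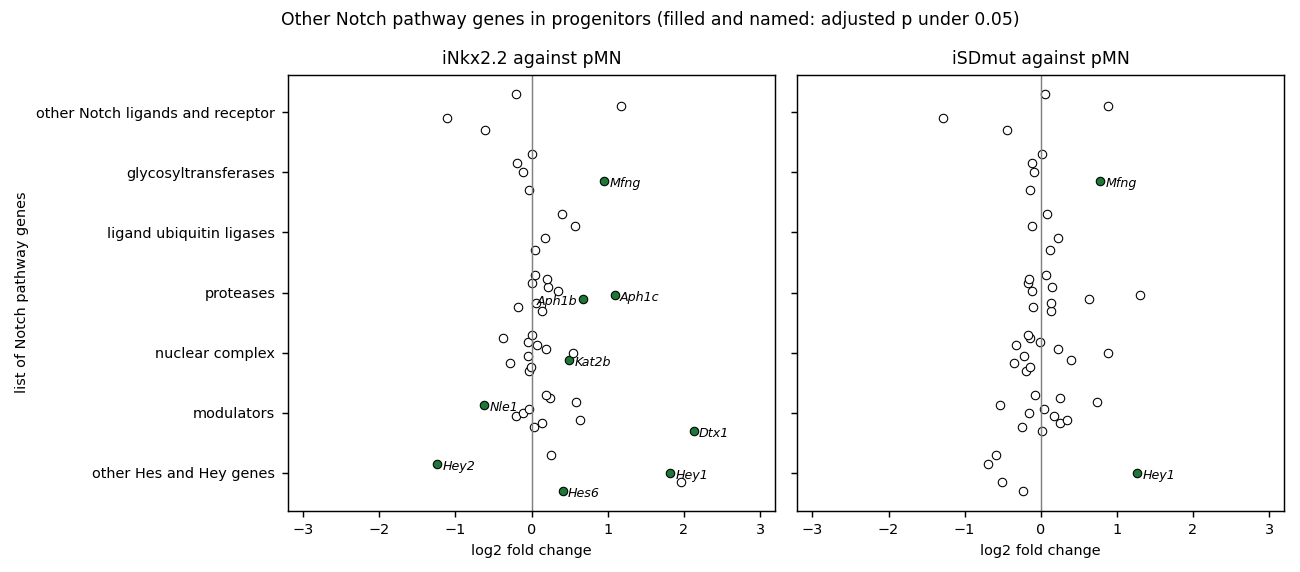
Log2 fold change (horizontal axis) of the 50 other Notch pathway genes tested, by list (vertical axis), in iNkx2.2 and in iSDmut against the same pMN libraries. Filled and named points passed an edgeR adjusted p of 0.05, 9 genes in iNkx2.2 and 2 in iSDmut.

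The genes whose log2 CPM followed each of 3 members most closely were looked up by Pearson's r over the 8 progenitor libraries, among the 11207 genes whose average log2 CPM reached 2. For Jag1 they were Asl (r 0.989), Zfp949 (0.977) and Hsdl2 (0.967). For Dll1 they were Celf5 (0.978), Sptan1 (0.976) and Tmem44 (0.973), and for Hes5 Hinfp (0.98), 2010110K18Rik (0.944) and Ocel1 (0.943). The 8 libraries share groups, lanes and replicate numbers, and these values are a description.

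In embryonic pancreas the comparison asks whether the SD mutation alters the pathway during development. Of the 10 members 0 were called, with edgeR and with DESeq2, where edgeR called 0.00534% of the 18723 genes tested. An unadjusted p under 0.05 was found for 0 members and 2.54% of all genes, and groups without overlap for 0 members and 3.58% of all genes. Jag1 was at 80.2, 115 and 79.3 CPM in controls and at 85.3, 103, 76.8 and 102 CPM in mutants. The groups overlapped, and their difference was 0.00 on the log2 scale (SE 0.168, interval -0.39 to 0.39). Dll1 was at 35.3, 30.1 and 28.9 CPM in controls and at 20.6, 36.3, 32.0 and 45.7 CPM in mutants, a wider spread in SDmut, with a difference of 0.10 (SE 0.247). Dll4 was at 24.3, 23.1 and 19.6 CPM in controls and 22.2, 22.1, 21.8 and 27.3 CPM in SDmut, which differed by 0.06 (SE 0.128).

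The intervals at E15.5 were narrow for some members and wide for others. Notch2 had the largest difference for its error, at 122, 197 and 147 CPM in controls and 131, 133, 106 and 125 CPM in mutants (log2 fold change -0.33, SE 0.167, interval -0.72 to 0.06). Hes1 differed by 0.07 (interval -0.24 to 0.38), Notch1 by -0.14 (interval -0.53 to 0.25), Notch3 by -0.30 (interval -1.06 to 0.46) and Jag2 by -0.19 (interval -0.85 to 0.48). Hes5 had 5 to 22 counts per library and Dll3 26 to 86, so their intervals ran from -1.81 to 1.03 and from -0.79 to 1.23. Of the other pathway genes, 0 of 51 tested were called with edgeR. Control 3 and mutant 2 held skeletal muscle transcripts, summing to 5630 and 6390 CPM over 10 markers, against 14.0 to 73.6 CPM in the other 5 libraries. Without both libraries 0 members were called.

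**Figure D5:**
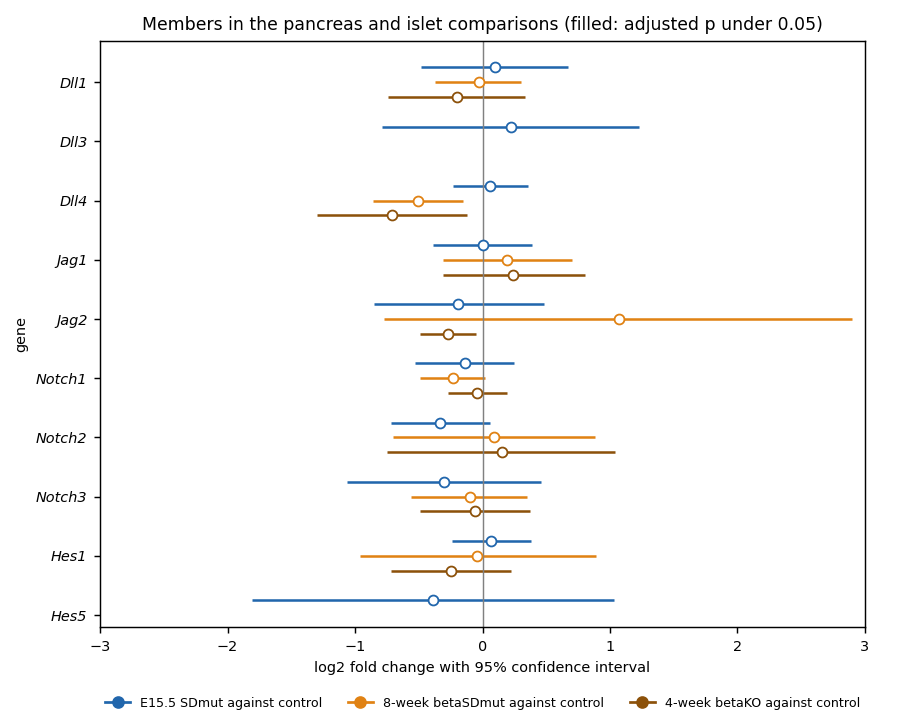
Log2 fold change (horizontal axis) with 95% confidence interval of the members in E15.5 pancreas, 8-week islets and 4-week islets. All points are open, since no member passed an edgeR adjusted p of 0.05, and Dll3 and Hes5 have no value in islets.

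The ligand makeup differed between tissues, which were counted in separate tables and were not tested against each other. In E15.5 pancreas, per kb of merged exon, Jag1 was the most abundant ligand in all 7 libraries, with 42.5%, 52.7% and 43.7% of the summed ligand level in controls and 44.8% to 50% in SDmut. Dll1 held 19.0% to 25.8% in controls and 16.6% to 27.8% in mutants. Among all members Hes1 was the highest, with control libraries at 28.4 ± 1.47 CPM per kb (SD, n = 3) and SDmut libraries at 29.9 ± 4.91 (SD, n = 4), and Hes5 the lowest, at 0.25 ± 0.092 and 0.19 ± 0.136. Hes1 stood above Notch1 without overlap, and Notch1, Jag1, Notch2 and Notch3 overlapped with their neighbours in the order.

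In islets Jag2 was the most abundant ligand in all 9 libraries, at 56.0% to 85.1% of the summed ligand FPKM. In 8-week controls the order by mean FPKM was Jag2 (13.2 ± 5.94, SD, n = 2), Notch1 (9.42 ± 0.773), Notch3, Hes1, Dll4, Dll1, Jag1 and Notch2 (0.798 ± 0.00768). Of neighbours in this order, Jag2 and Notch1 overlapped there, as did Notch3 and Hes1, and Hes1 and Dll4. Dll3 had 2 and 0 counts in 8-week controls and 0, 0 and 3 in betaSDmut, and Hes5 had 0 and 2, and 0, 0 and 3. In the 4 libraries of 4-week islets both genes had 0 or 1 count. These counts are at or under the floor of 3 counts in each library, so no fold was computed.

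The 8-week comparison asks what the beta-cell mutation changes in the pathway of mature islets. Of 8 members tested 0 were called, with edgeR and with DESeq2, where edgeR called 7.94% of 15413 genes (4.07% higher and 3.87% lower). Groups did not overlap for 2 members, Dll4 and Notch1, both lower, and for 45.9% of all genes, and 1 member had an unadjusted p under 0.05, with 25.7% of all genes. That was Dll4, at 8.54 and 7.63 CPM in controls and 6.16, 5.78 and 5.14 CPM in betaSDmut. The mutants lay below both controls (log2 fold change -0.51, SE 0.145, interval -0.86 to -0.15, adjusted p 0.0936). Endothelial markers, a source of Dll4, summed to 350 and 339 CPM in controls and to 352, 302 and 291 CPM in mutants, with 0 of 9 tested called, and their part was not tested. Jag2 was at 56.7 and 29.1 CPM in controls and at 33.5, 131 and 105 CPM in betaSDmut. Mutants 2 and 3 were above both controls and mutant 1 between them, so the log2 fold change of 1.07 had a wide error (SE 0.687, interval -0.77 to 2.90, adjusted p 0.401). Jag1 differed by 0.19 (interval -0.31 to 0.70), Dll1 by -0.03 (interval -0.37 to 0.30), Notch1 by -0.23 (interval -0.49 to 0.02) and Hes1 by -0.04 (interval -0.96 to 0.89). Notch2 and Notch3 differed by 0.09 and -0.10.

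Of 49 other pathway genes tested in 8-week islets 1 was called higher and 4 lower, a share near the 7.94% over all genes. Maml2, a coactivator of the Notch complex, rose from 9.34 and 10.3 CPM to 17.4, 20 and 16.2 CPM (log2 fold change 0.86, adjusted p 0.0171). Dner, a Notch ligand of neurons, fell from 22.5 and 22.3 CPM to 14.0, 9.51 and 11.8 CPM (-0.93, adjusted p 0.0263). Dtx2 and Dtx3l, of the Deltex ubiquitin ligase family, fell by 1.01 (adjusted p 0.01) and by 0.50 (adjusted p 0.0221), and Kat2b fell by 0.34 (adjusted p 0.0329). Of 11 alternatives, Dtx2 passed in 9, Maml2 in 8, Dner and Dtx3l in 7 each and Kat2b in 5. Each of these 5 calls was lost without either control library, in fits that hold 1 control assumed to vary like the mutants. Their folds kept their direction there, as for Maml2 (0.79 and 0.93) and Dner (-0.93 and -0.94). Acinar markers summed to 8530 and 5250 CPM in controls and to 744, 1500 and 6990 CPM in mutants. Most other lists had sums that did not overlap. Among them were mesenchyme and mural markers (279 and 310 CPM against 213, 227 and 185). Ductal markers (330 and 246 against 165, 244 and 217) and postmitotic neuron markers (271 and 285 against 394, 401 and 398) were others. Endocrine markers summed to 281000 and 297000 CPM in controls and to 259000, 246000 and 234000 CPM in mutants, also without overlap. Neural progenitor and pluripotency markers summed to less in all mutants than in either control. Skeletal muscle markers, and V3 and floor plate markers, summed to more, again without overlap. Separation of groups this small was common, with 45.9% of all genes not overlapping. The part of all these markers was not tested.

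In 4-week islets 0 of 8 members were called, with edgeR and with DESeq2, where edgeR called 1.56% of 14942 genes (0.81% higher and 0.75% lower), and 2 members had an unadjusted p under 0.05, with 15.2% of all genes. Dll4 was at 11.1 and 16.1 CPM in controls and 7.38 and 9.27 CPM in the libraries labelled betaKO, which were the lower ones (log2 fold change -0.71, SE 0.238, interval -1.30 to -0.12, adjusted p 0.252). Endothelial markers also summed to less there, 284 and 359 CPM against 409 and 482 CPM in controls, with 0 of 10 called, and their part was not tested. Jag2 was at 63.3 and 64.2 CPM in controls and 54.2 and 51.3 CPM in betaKO-labelled libraries (difference -0.27, SE 0.0887, adjusted p 0.239). Ranges did not overlap for 3 members, all lower (Dll4, Jag2 and Hes1), and for 47.5% of all genes. Jag1 differed by 0.24 (interval -0.31 to 0.80) and Notch1 by -0.04 (interval -0.27 to 0.19). Of 49 other pathway genes 1 was called, Neurl1a, a ubiquitin ligase that acts on Notch ligands, which rose from 20.6 and 18.9 CPM to 48.5 and 39.3 CPM (log2 fold change 1.15, SE 0.139, adjusted p 0.0344), a call lost without either control (1.22, adjusted p 0.147, and 1.09, adjusted p 0.193), where the control left is assumed to vary like the other group. Other markers differed between the same libraries. The 14 acinar markers summed to 7570 and 4230 CPM in controls and 29300 and 9970 CPM in the libraries labelled betaKO. The 10 mesenchyme and mural markers summed to 288 and 337 CPM against 402 and 504 CPM. Col1a1 and Col3a1 were called higher, while the median log2 fold change of the 10 was -0.25. Blood and immune (102 to 274 against 36.8 to 54.6) and neural progenitor markers (606 to 699 against 502 to 598) summed to less. Postmitotic neuron (262 to 281 against 343 to 387) and ductal markers (278 to 326 against 334 to 348) summed to more. So did V3 and floor plate (101 to 124 against 127 to 162) and pluripotency markers (9.18 to 12.1 against 14.3 to 22.3). Of 10 endocrine markers Gcg and Ppy were called higher, and the part of these markers in the values was not tested.

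Nkx2.2 binding was measured by chromatin immunoprecipitation sequencing (2 libraries) in MIN6, a beta-cell line from a mouse insulinoma. None of the 6473 final sites of the authors lay within 50000 bp of any of the 10 member genes, and neither did any of the 10749 events in the authors' longer list. Of 21755 protein-coding genes, 32.2% had a final site in such a window. The closest site to a member was at position 119263157 of chromosome 2 (mm10), 62627 bp before Dll4, and ranked 5073 by the authors' mean log2 CPM (6.38). These sites describe MIN6 cells, and binding in the progenitors was not measured in these files.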

How the data were processed

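The authors deposited read counts per gene for progenitors, E15.5 pancreas and islets, and FPKM for progenitors and islets. A further deposited table of the authors gives log2 fold changes, p-values and calls (1, 0 or -1), and their binding site tables give log2 CPM of the ChIP libraries. Per the submitters' processing notes the tools were STAR, Cufflinks, DESeq2, edgeR 3.20.9, limma 3.34.9 and bedtools 2.17.0, with mm10; the counting rule and its use of strand are not given in the sources used here.

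The counts were tested with edgeR 4.0.16 (R 4.3.3; TMM factors, filterByExpr, robust quasi-likelihood fit). The 8 progenitor libraries were fitted together, and E15.5 pancreas, 8-week islets and 4-week islets each on their own. P-values were adjusted by Benjamini-Hochberg over all genes tested, with a threshold of 0.05. SE was taken as the absolute log2 fold change over the root of the F statistic. The script was tested on simulated data with 200 changed genes. Samples were grouped by their titles, lines and treatments. Total counts per library (12398041 to 46840701) set the precision of low genes.

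The members and lists were chosen with earlier results of these data known. Genes named are the 10 members, Nkx2-2, other pathway genes with an adjusted p under 0.05, the 3 genes most alike Dll1, Jag1 and Hes5 (log2 CPM, prior count 2), and binding sites within 50000 bp. Where none was, the nearest was named after its values were seen. Same-numbered pMN and iNkx2.2 libraries had correlated deviations from their group means (r 0.561, 0.548 and 0.584), a hint from the data that the title numbers pair them. Alternatives were DESeq2 1.42.0, RLE factors, total counts, other filters, each library left out, the replicate number as a block, the sequencing lane of the titles, only the groups compared and, at E15.5, without the muscle libraries. The lane 2 fits for iSDmut were chosen after seeing the data. E15.5 levels per length are CPM divided by merged exon length (GENCODE, GRCm38). No library pair agreed within sampling noise. The input library of the ChIP experiment was not analysed here. Python 3.11.15, pandas 2.3.3 and matplotlib 3.10.9 were used.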

Additional observations from a re-analysis of the deposited data

Results flagged for a closer look

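Dll4 in embryonic pancreas was at 27.3 CPM in SDmut replicate 4, while the other 3 mutants were at 21.8 to 22.2 CPM. The gap to the nearest library was 0.938 of the group's range, above Dixon's 95% critical value of 0.829 for 4 samples. This group was examined for 10 genes, and chance gives such a gap in about 1 in 20 groups.

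Dtx1 differed between the effects of the 2 transgenes, with a log2 fold change of -2.1 in iSDmut against iNkx2.2 (SE 0.285, edgeR adjusted p 0.0281). It was lower in both iSDmut libraries than in all 3 iNkx2.2 libraries.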

How the results depend on the processing

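Values below are log2 fold changes or numbers called. In iNkx2.2 against pMN, 1486 genes were called (738 higher, 748 lower), 3492 with lane as a covariate, 4629 with the replicate block and 412 to 1604 without 1 library. It was 412 without iNkx2.2 replicate 1, 845 without replicate 2 and 775 without replicate 3, 451 without pMN replicate 1 and 681 without pMN replicate 2. With total counts 917 were higher and 412 lower, with DESeq2 1112 and 1102, and without a filter 857 and 567. The 2 members called became 4 with DESeq2, no filter or the lane covariate, 1 in lane 2 only, 5 with the block and 2 to 3 without 1 library. Jag1 kept its call under all 17 alternatives here and against pMN in iSDmut, and Dll4 under 16 in each. Dll1 and Dll3, not called, were called under 8 and 5 of 17. In iSDmut against pMN, 554 genes were called, 1349 with DESeq2, 151 in lane 2 only, 295 with only the 2 groups, 2626 with the replicate block and 171 to 471 without 1 library. Fewest were called without pMN replicate 1 (171), replicate 2 (253) and replicate 3 (314), iNkx2.2 replicate 1 (305), and iSDmut replicate 1 (306) and 2 (349). With total counts 342 were higher and 164 lower, against 297 and 257. The 2 members called became 1 in lane 2 only and 4 with the block, which added Dll1 (0.40) and Notch2 (-0.42).

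In iSDmut against iNkx2.2, 44 genes were called, 496 with DESeq2 (196 higher, 300 lower, against 25 and 19), 243 in lane 2 only, 1023 with the lane covariate, 145 without a filter, 13 with only the 2 groups, 528 with the replicate block and 1 to 467 without 1 library. It was 467 without iSDmut replicate 2, 5 without iSDmut replicate 1, 3, 2 and 4 without iNkx2.2 replicates 1, 2 and 3, and 1 and 20 without pMN replicates 1 and 3. The 0 members called became 2 with DESeq2, no filter or the block (Jag1 0.72, adjusted p 0.00604, and Dll3 -0.82, adjusted p 0.00614), and 3 with the lane covariate. At E15.5, 1 gene was called, 0 with the 4-digit title number as a block, 28 with DESeq2, 2 with total counts and 0 to 2 without 1 library. At 8 weeks, 1224 genes were called, 1999 with DESeq2, 665 with the replicate block, and 37 to 2765 without 1 library (controls 45 and 37, betaSDmut replicate 1 2765, replicate 2 384); with total counts 927 were higher and 434 lower, against 628 and 596. At 4 weeks, 233 were called, 800 with DESeq2, 372 without a filter, 127 with total counts, and 4 to 478 without 1 library (controls 4 and 15, betaKO replicate 1 478, replicate 2 61). The 8-week block fit left out betaSDmut replicate 3, which has no same-numbered control. No member was called in islets or at E15.5 under any alternative. For iSDmut and islets the labels do not state that the replicate numbers pair libraries. Running numbers in the progenitor titles, iSDmut among them, follow the replicate number, and their meaning is not given. Same-numbered deviations had r 0.376 and 0.054 (iSDmut with pMN) and -0.0839, -0.126 and -0.039 (islets).

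Directions that turned, none of them called, were Notch2 in iNkx2.2 (0.02 with total counts), Hes5 in iSDmut against pMN (-0.06 with the block), and between the transgenes Dll1, Notch1 and Hes5 (0.04, 0.13 and 0.14 with the lane covariate, 0.01, 0.11 and 0.10 in lane 2 only). At E15.5 they were Dll1 (-0.09) and Dll4 (-0.01) with the block, and Dll3 (-0.08) without the muscle libraries. At 8 weeks they were Dll1 (0.05) and Hes1 (0.06) with total counts, and Dll1 (0.01) and Notch2 (-0.28) with the block, which left out betaSDmut replicate 3. Without 1 library, directions turned in iNkx2.2 for Notch2 (-0.16 to 0.05) and Hes5 (-0.02 to 0.53), and in iSDmut against pMN for Notch1 (-0.15 to 0.23), Notch3 (-0.12 to 0.15) and Hes5 (-0.28 to 0.61). Between the transgenes they turned for Dll1 (-0.44 to 0.09) and Hes5 (-0.55 to 0.35), and at E15.5 for Dll1 (-0.09 to 0.27), Dll4 (-0.02 to 0.13) and Hes1 (-0.01 to 0.14). At 8 weeks they turned for Dll1 (-0.08 to 0.01), Jag1 (-0.01 to 0.42), Notch2 (-0.28 to 0.26), Notch3 (-0.34 to 0.17) and Hes1 (-0.36 to 0.37), and at 4 weeks for Notch1 (-0.09 to 0.01), Notch2 (-0.23 to 0.71) and Notch3 (-0.30 to 0.15). The cause was not tested. Dll3 and Hes5 had at most 3 counts in islets, too few to test. Where leaving out a library left 1 in a group, that library is assumed to vary like the other groups. The lane covariate has the same limit for iSDmut, since replicate 2 is the only library of lane 3 and replicate 1 alone sets the effect.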
